A study of Mus musculus with 30 samples.

Results

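The gene set described here is the machinery with which an osteoclast acidifies bone. Its 33 genes were taken from a written list: 10 subunits of the membrane (V0) sector of the vacuolar proton pump, 13 subunits of its catalytic (V1) sector, 2 accessory subunits, 5 ion, chloride and bicarbonate handling genes and 3 genes of vesicle traffic to the ruffled border. The list was drawn up by gene role, but with earlier results of these data known. All 33 were found among the 45706 genes of the tables, and 27 of them averaged 1 or more on the TPM scale (transcript abundance per length, summing to the same total in each library) and entered the tests, with 12614 genes in all. The other 6 are described by their levels only.

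The study sequenced polyadenylated RNA of osteoclasts that had been grown on bone slices from bone marrow macrophages of C57BL/6J mice, to ask whether age or loss of Terc, the RNA template of telomerase, altered gene expression. All cultures received 25 ng/ml M-CSF, a macrophage growth factor, and 100 ng/ml RANKL, the osteoclast-inducing cytokine. Wild-type cells were taken after 2 days (mice of 6 and 20 months) or once large multinucleated cells had appeared (1, 6 and 20 months), and Terc-/- cells at the large-cell stage only (1 and 6 months). There were 30 libraries in 10 groups of 3, and 3 large-cell groups carry a mark in their titles that the labels do not explain: 519 for Terc-/- cells at 1 and 6 months, and gaiwei for wild-type cells at 1 month. The labels do not say whether the 3 libraries of a group came from separate mice or cultures, nor how many days the large cells took, so p-values measure only the spread between these libraries, which may be technical.

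The vacuolar proton pump is a rotary machine. Its V1 sector in the cytoplasm splits ATP and turns a central stalk, and the V0 sector in the membrane carries protons across as its ring of proteolipid subunits rotates. In an osteoclast resting on bone, late endosomes and lysosomes loaded with the pump fuse with the membrane facing the bone and form the ruffled border. Carbonic anhydrase supplies the protons, a chloride-proton exchanger moves chloride into the resorption space, and an anion exchanger on the opposite membrane removes the bicarbonate that is left. Loss of the pump subunit Tcirg1, of Clcn7, Ostm1, Snx10, Plekhm1 or Car2 gives osteopetrosis, dense bone that osteoclasts fail to resorb.

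Several genes of the set lie close to an E-box, the DNA letters read by the MiT family of transcription factors (Mitf, Tfeb, Tfe3 and Tfec), which are known regulators of lysosome and osteoclast genes. RefSeq promoter windows (build GRCm38.p6, 250 bases before to 50 bases after a start) were found for 26 of the 33 genes, in 36 windows. The letters TCACGTG, searched on both strands, occurred in windows of 5 of those 26 genes (19.2%): Atp6v0b, Atp6v0d1, Atp6v0e, Atp6v1a and Clcn7. Of all 27025 gene symbols with a window, 4.29% held them. The shorter CACGTG, which lies inside TCACGTG, occurred in the same 5 genes against 8.09% of all symbols, and the related TCATGTG in 2 of 26 (7.69%, Atp6v0c and Clcn7) against 4.31%. The stretches ahead of the start are shown for the genes with a TCACGTG match there, and for the second start of Clcn7 with TCATGTG. They are printed 5′ to 3′ along the gene, with the matched letters of either strand in capitals, and lie at chr4:117887334-117887426 (Atp6v0b, minus strand), chr16:44139324-44139451 (Atp6v1a, minus strand, inside the annotated gene but outside its exons), chr17:25133315-25133390 and chr17:25136529-25136621 (Clcn7, plus strand):
Atp6v0b: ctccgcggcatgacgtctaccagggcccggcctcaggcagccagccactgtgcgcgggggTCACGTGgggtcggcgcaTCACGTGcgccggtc
Atp6v1a: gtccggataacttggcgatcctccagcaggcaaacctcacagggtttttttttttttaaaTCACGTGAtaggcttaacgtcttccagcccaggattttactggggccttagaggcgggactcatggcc
Clcn7, first window: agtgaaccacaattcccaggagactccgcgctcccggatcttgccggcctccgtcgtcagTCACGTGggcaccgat
Clcn7, second window: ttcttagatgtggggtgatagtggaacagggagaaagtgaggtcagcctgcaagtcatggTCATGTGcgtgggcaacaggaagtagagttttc
These are matches of letters and do not show that a factor binds there. Matches that reached into an exon or past the start are not printed, and no window was held for Atp6v0a2, Atp6v0d2, Atp6v1b2, Atp6v1c1, Atp6v1g1, Atp6v1h and Car2.

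A few facts of the whole series bear on every result. Terc gave no check of the genotype labels, being at 0 in 12 of 12 Terc-/- libraries and in 15 of 18 wild-type libraries. The 3 unmarked 1-month wild-type libraries read 46.6 to 84.1 TPM of Xist and no Eif2s3y, and the other 27 read at most 0.254 TPM of Xist and 12.1 to 82.0 TPM of Eif2s3y, which is Y-linked. Comparisons with that group therefore also compare a female with a male pattern, and the 2 cannot be told apart. Among 6-month wild-type large cells, replicate 2 was the least like its group (mean correlation 0.910, against 0.933 to 0.990 for the others), and the fitted variance of that group was 7.15 relative to the geometric mean over groups (0.46 to 2.25 in the others). In this library longer transcripts read lower than in the rest of its group: the Spearman correlation of its log ratio with exon length was -0.458 over the 27 tested members and -0.473 over 12565 genes. It was not alone in this: replicate 1 of the unmarked 1-month wild type reached -0.576 over the members and -0.549 over all genes. Replicate 3 of unmarked 1-month Terc-/- read -0.463 and -0.430, and replicate 2 of 519-marked 1-month Terc-/- read -0.590 and -0.363. Other libraries went the opposite way, such as replicate 4 of the unmarked 1-month wild type (0.631 and 0.485). Summed TPM of 10 osteoclast markers lay at 4534 to 27692 in unmarked large-cell libraries, at 663 to 2160 in marked ones and at 355 to 795 at 2 days. In RNA from whole cultures, fewer osteoclasts and less RNA per osteoclast cannot be told apart.

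The 33 genes together held 0.398 to 0.458% of all TPM in the 6 libraries of 2 days, 0.557 to 0.629% in the 9 marked large-cell libraries and 0.716 to 1.20% in the 15 unmarked large-cell libraries, ranges that did not overlap. On this per-length scale the most abundant member was Atp6v0c, the main proteolipid of the rotating ring, at 553 to 2767 TPM. At the other end stood the 6 genes under 1 TPM. They are isoforms best known from other organs: Atp6v0a4, Atp6v1b1, Atp6v1c2 and Atp6v1g3 from kidney and other acid-secreting epithelia, Atp6v0e2 from brain and Atp6v1e2 from testis. Atp6v1b1 exceeded 0 in 2 of 30 libraries, Atp6v1g3 in 2 and Atp6v1e2 in 4, none above 0.230 TPM. Atp6v0e2 was the highest of the 6, at 0.623 to 1.70 TPM at 2 days and 0.0796 to 0.672 TPM in large cells. Where a subunit has several isoforms, 1 of them therefore held nearly all transcripts in every library for B (Atp6v1b2), C (Atp6v1c1), E (Atp6v1e1), e (Atp6v0e) and G (Atp6v1g1, at least 98.97% of the summed TPM). The a and d subunits were mixed.

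Most of the machinery was higher in large cells than at 2 days, at both ages with both stages. In 6-month wild type 22 of the 27 tested members rose and 1 fell, where 19.1% of all tested genes were called (10.3% up and 8.8% down). In 20-month wild type 25 rose and 1 fell, where 56.9% of all tested genes were called (28.7% up and 28.2% down). The median change of the 27 members was 1.37 at 6 months and 1.10 at 20 months on the log2 scale, against -0.02 and 0.00 over all tested genes. Changes are log2 differences of scaled TPM + 1 ± SE from limma with 3 libraries a group, and a call is a Benjamini-Hochberg adjusted p under 0.05. This scale understates changes of genes near 1 TPM. With TPM as deposited the median of all genes was -0.36 at 6 months and -0.11 at 20 months, and 23.3 and 38.2% of called genes were higher in place of 53.8 and 50.5%, while 20 and 26 members were called. Of all 12614 genes, 498 were then higher and 1643 lower at 6 months, and 2752 and 4456 at 20 months. All 10 osteoclast markers rose in both comparisons. Of the 6 tested stromal markers 1 fell at 6 months, and 4 rose and 2 fell at 20 months. Their part in the members' changes was not tested. Over 12565 genes the change had a Spearman correlation with exon length of -0.352 at 6 months and -0.058 at 20 months (-0.142 and 0.054 over the 27 members). Without the 6-month large-cell replicate 4, 7 members were called at 6 months, and without replicate 2, 25.

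**Figure D1:**
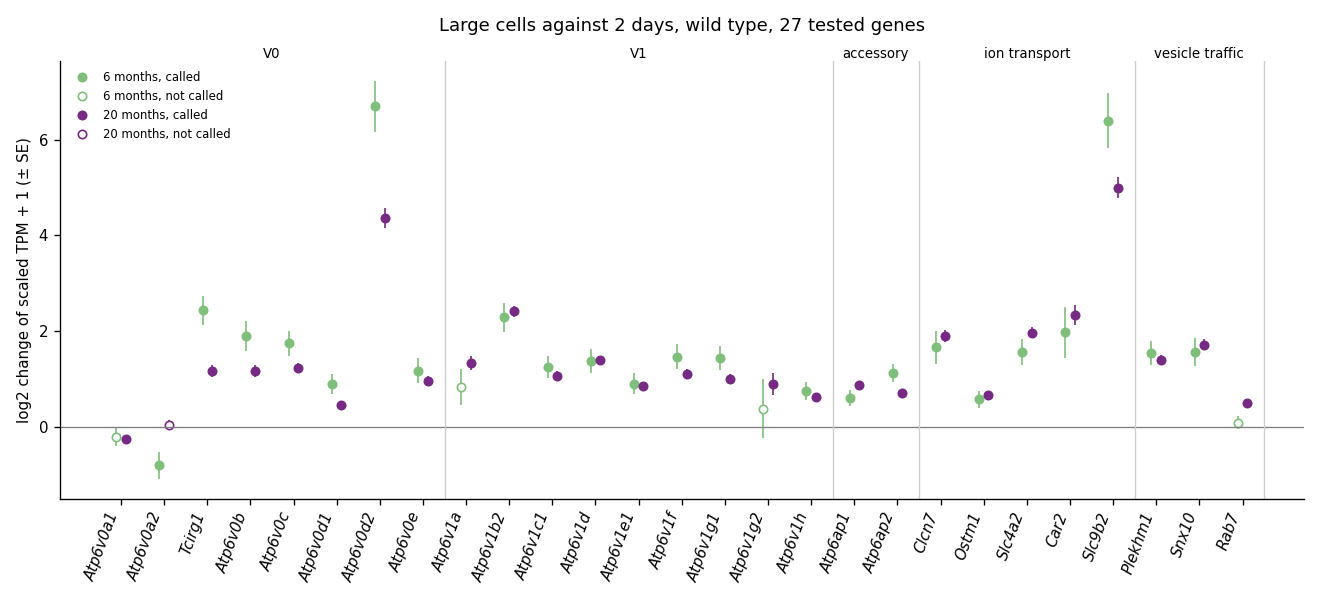
Change from 2 days to large cells for each of the 27 tested genes, grouped by role, at 6 months (green) and 20 months (purple); points are log2 changes of scaled TPM + 1, bars are standard errors, and filled points passed the adjusted p threshold. Atp6v0d2 and Slc9b2 stand above 4 at both ages while most other genes lie between 0 and 2.5.

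The V0 sector held both the largest rise and the only falls. Atp6v0d2, the d subunit known as enriched in osteoclasts, joins the proteolipid ring to the central stalk. At 6 months it read 1.48, 1.28 and 3.13 TPM at 2 days and 388, 152 and 253 TPM in large cells, in order of replicate number. At 20 months it read 23.3, 21.8 and 15.1 against 366, 509 and 335 TPM. Every large-cell library was far above every 2-day library, with changes of 6.70 ± 0.54 (adjusted p = 1.79e-08) and 4.37 ± 0.21 (adjusted p = 2.44e-14). Its ubiquitous counterpart Atp6v0d1 moved far less, from 123, 116 and 123 to 178, 181 and 155 TPM at 6 months and from 125, 119.5 and 126 to 157, 156 and 157 TPM at 20 months (0.89 ± 0.21 and 0.46 ± 0.08). The stages still did not overlap.

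Tcirg1 encodes the a3 subunit, which lines the proton path and carries the pump to the ruffled border. It read 170.1, 162 and 173 TPM at 2 days and 703, 960.0 and 500.2 TPM in large cells at 6 months, and 314, 296 and 298 against 554, 715 and 614 TPM at 20 months. The rises were 2.43 ± 0.31 (adjusted p = 1.31e-05) and 1.17 ± 0.12 (adjusted p = 9.7e-09), with no overlap between stages. The other a subunits, which serve the Golgi and endosomes in most cells, went the other way or stayed close to their level. Atp6v0a2 fell at 6 months, from 45.9, 42.1 and 38.2 to 27.4, 9.65 and 21.7 TPM (-0.80 ± 0.28, adjusted p = 0.0453), and at 20 months read 25.5, 28.4 and 35.9 against 31.0, 23.6 and 29.4 TPM, which overlap (0.03 ± 0.11, adjusted p = 0.81). Atp6v0a1 fell at 20 months, from 37.7, 40.8 and 43.3 to 30.4, 28.9 and 34.1 TPM (-0.25 ± 0.07, adjusted p = 0.00422). At 6 months it read 46.6, 49.2 and 45.2 against 43.0, 26.6 and 25.3 TPM, which did not overlap, without passing the test (adjusted p = 0.44).

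The ring subunits and the small subunit e rose together. Atp6v0c went from 566, 553 and 609 to 1598, 1361 and 1456 TPM at 6 months and from 691, 701 and 698 to 1484, 1633 and 1389 TPM at 20 months (1.74 ± 0.27 and 1.23 ± 0.10). Atp6v0b, the second kind of ring proteolipid, went from 253, 239.6 and 258 to 650.0, 884 and 625 TPM and from 322, 348 and 316 to 642, 786 and 616 TPM (1.90 ± 0.31 and 1.17 ± 0.12). Atp6v0e, a short membrane subunit of less known role, went from 344, 317 and 336 to 565, 524 and 637 TPM and from 308, 337 and 329.7 to 552, 645 and 549.7 TPM (1.18 ± 0.26 and 0.96 ± 0.10). For these 3 genes every large-cell library lay above every 2-day library of its age.

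In the V1 sector 7 of 9 tested subunits rose at 6 months and 9 of 9 at 20 months, with no fall. Atp6v1b2, the nucleotide-binding B subunit, rose most. It read 95.5, 96.7 and 95.8 TPM at 2 days and 655, 164 and 437 TPM in large cells at 6 months, and 129, 136 and 124 against 591, 748 and 588 TPM at 20 months (2.29 ± 0.30, adjusted p = 1.73e-05, and 2.41 ± 0.11, adjusted p = 2.72e-14). Its partner in the catalytic ring is Atp6v1a, which splits the ATP. Atp6v1a rose at 20 months, from 198, 208 and 192 to 446, 501 and 440.3 TPM (1.33 ± 0.14). At 6 months it read 157, 167 and 149 against 556, 65.4 and 267 TPM and was not called (adjusted p = 0.123). The lowest of those large-cell values, below every 2-day library, is that of replicate 2, in which longer transcripts read lower than in the rest of its group.

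The stalk subunits followed with smaller rises. Atp6v1d and Atp6v1f belong to the central rotor. Atp6v1d went from 147, 153 and 144 to 358, 235 and 299 TPM at 6 months and from 145, 139 and 144 to 332, 402 and 309 TPM at 20 months (1.37 ± 0.25 and 1.39 ± 0.10). Atp6v1f went from 214, 219.9 and 219 to 443, 479.5 and 457 TPM and from 251, 228 and 275 to 481, 526 and 476 TPM (1.47 ± 0.26 and 1.10 ± 0.10). Neither gene overlapped between stages at either age. The outer stalks are built from subunits E and G. Atp6v1e1 went from 297, 308 and 296 to 484, 372 and 435 TPM and from 282, 302 and 283 to 469, 546 and 434 TPM (0.90 ± 0.21 and 0.86 ± 0.08). Atp6v1g1 went from 296, 309 and 319 to 634, 629.6 and 639 TPM and from 324, 329 and 305 to 599, 664 and 516 TPM (1.43 ± 0.25 and 1.01 ± 0.10). Both were higher in every large-cell library.

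Subunits C and H, which hold V1 to V0 and govern whether the pump is assembled, behaved alike in direction. Atp6v1c1 went from 88.6, 87.2 and 88.3 to 223, 105 and 179 TPM at 6 months and from 110.2, 117 and 102 to 201, 250.4 and 189 TPM at 20 months (1.26 ± 0.23 and 1.07 ± 0.09). Atp6v1h went from 66.1, 71.0 and 75.2 to 120.3, 56.8 and 111 TPM, and at 20 months from a mean of 73.7 to a mean of 105 TPM (0.75 ± 0.19 and 0.63 ± 0.07). The 6-month large-cell replicate 2 read 56.8 TPM of Atp6v1h, lower than the 2-day libraries, so its stages overlapped on the deposited scale. Atp6v1g2, a G isoform best known from neurons, lay at 0.682 to 4.65 TPM. It rose at 20 months (1.53, 1.21 and 3.04 against 4.18, 4.65 and 3.70 TPM, 0.90 ± 0.24) and overlapped at 6 months (0.38 ± 0.61, adjusted p = 0.697).

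Both accessory subunits, which help the pump to assemble and reach its membrane, rose at both ages. Atp6ap1 went from 266, 246 and 257 to 416, 190.2 and 332 TPM at 6 months and from 265, 269.8 and 272 to 434, 501 and 434 TPM at 20 months (0.60 ± 0.16 and 0.88 ± 0.06). Atp6ap2, the prorenin receptor, went from 114, 118 and 117 to 289.5, 110.0 and 232 TPM and from 151, 166 and 159 to 223, 266 and 229 TPM (1.13 ± 0.19 and 0.71 ± 0.07). At 6 months replicate 2 of the large cells again read lower than the 2-day libraries for both.

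All 5 ion and bicarbonate genes rose at both ages. Slc9b2, a sodium-proton exchanger known to be induced by RANKL, rose most of them. It read 1.63, 0.431 and 1.97 TPM at 2 days and 200.1, 132 and 152 TPM in large cells at 6 months, and 9.38, 12.2 and 5.31 against 269, 359.7 and 240.2 TPM at 20 months (6.39 ± 0.58, adjusted p = 1.27e-07, and 4.99 ± 0.22, adjusted p = 8.92e-15). Car2, the carbonic anhydrase that makes the protons, was a low transcript throughout. It read 3.79, 3.37 and 4.71 against 24.4, 7.75 and 16.2 TPM at 6 months and 3.03, 3.07 and 2.83 against 15.6, 22.9 and 17.6 TPM at 20 months (1.97 ± 0.53 and 2.33 ± 0.20). In both genes every large-cell library exceeded every 2-day library.

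Slc4a2, the anion exchanger that removes bicarbonate, went from 46.9, 44.3 and 48.2 to 170.2, 65.5 and 108 TPM at 6 months and from 46.5, 40.2 and 46.3 to 157, 181 and 150.1 TPM at 20 months (1.57 ± 0.28 and 1.97 ± 0.11). Clcn7, the chloride-proton exchanger, went from 45.3, 44.0 and 34.7 to 185, 65.3 and 85.1 TPM and from 42.8, 60.9 and 51.0 to 170.4, 205 and 160.3 TPM (1.66 ± 0.34 and 1.90 ± 0.13). Neither overlapped between stages. Ostm1, the partner that Clcn7 needs to be stable, changed less. It went from 39.4, 44.0 and 41.6 to 66.3, 31.7 and 52.1 TPM, overlapping through replicate 2, and from 45.9, 51.9 and 46.0 to 66.9, 77.2 and 67.0 TPM (0.58 ± 0.18 and 0.66 ± 0.07).

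Of the 3 traffic genes, Plekhm1 and Snx10 rose at both ages and Rab7 at 20 months. Plekhm1, an adaptor that binds Rab7 and brings lysosomes to the ruffled border, went from 11.9, 10.3 and 12.9 to 41.5, 21.9 and 23.3 TPM and from 16.0, 15.8 and 15.7 to 38.0, 44.4 and 38.7 TPM (1.54 ± 0.25 and 1.40 ± 0.10). Snx10, an endosomal sorting nexin, went from 63.2, 66.0 and 64.4 to 259, 77.8 and 161 TPM and from 95.5, 108 and 94.3 to 289, 364 and 259 TPM (1.57 ± 0.29 and 1.72 ± 0.11). Neither overlapped between stages. Rab7, the GTPase of late endosomes, went from 434, 419.9 and 434 to 544, 563 and 563 TPM at 20 months (0.50 ± 0.05), and at 6 months read 540.1, 508 and 489 against 572, 254 and 489 TPM, which overlap (0.09 ± 0.13, adjusted p = 0.689).

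With d2 far above d1 in its rise, the makeup of the d subunit turned over. Atp6v0d2 made up 1.09 to 2.48% of the summed TPM of both d genes at 2 days and 6 months, 10.7 to 15.7% at 2 days and 20 months, and 35.8 to 76.6% in the 15 unmarked large-cell libraries (median 62.0%). In the 9 marked large-cell libraries it made up 2.25 to 6.17%. The a subunits shifted by less. For the d and the a subunits alike, the marked libraries overlapped with the range of the 2-day ones. Tcirg1 made up 63.9 to 67.4% of the summed a TPM at 2 days and 6 months, 79.0 to 83.2% at 2 days and 20 months, 89.4 to 96.4% in unmarked and 77.1 to 88.4% in marked large-cell libraries. Shares do not depend on scaling between libraries. The lowest d2 shares among unmarked large cells, 35.8 and 45.6%, belonged to replicate 4 of 6-month Terc-/- and replicate 2 of 6-month wild type.

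**Figure D2:**
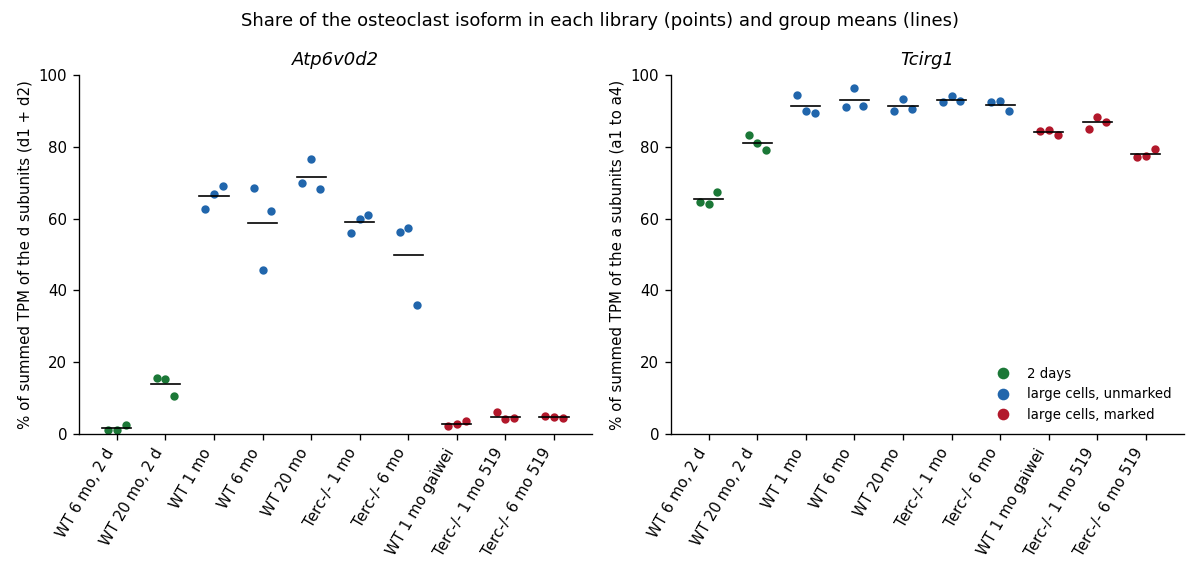
Share of Atp6v0d2 in the summed TPM of both d subunits (left) and of Tcirg1 in that of the a subunits (right), in percent, for each library (points) of the 10 groups, with group means (lines). Unmarked large cells (blue) lie at 35.8 to 76.6% for Atp6v0d2, above all marked (red, at most 6.17%) and 2-day libraries (green, at most 15.7%).

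The size of the step from 2 days to large cells was compared between 20 and 6 months as a difference of differences. It differed for 2 of the 27 members, both smaller at 20 months, where 13.2% of all tested genes were called (6.47% up and 6.71% down). They were Atp6v0d2 (-2.33 ± 0.57, adjusted p = 0.0102) and Tcirg1 (-1.27 ± 0.33, adjusted p = 0.0144). The median over members was -0.05 against 0.01 over all tested genes. As deposited the median of all genes was 0.24, and 68.4% of called genes were higher in place of 49.1%. The difference had a Spearman correlation with exon length of 0.320 over members and 0.316 over all genes. Both genes were already higher at 2 days in the older cells, as the values above show, while their large-cell values overlapped between the ages. The Atp6v0d2 call did not pass with TPM as deposited (adjusted p = 0.0517), nor without replicate 1 (0.0762) or replicate 4 (0.247) of the 6-month large cells. The Tcirg1 call did not pass without replicate 4 (0.164). Without replicate 1, replicate 2 or replicate 4 of the 6-month large cells 1, 6 and 0 members were called, and 4 without replicate 3 of the 6-month 2-day cells.

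At 2 days, several acid genes were higher in 20-month than in 6-month cells. Of the 27 members 11 were higher and 3 lower in the older cells, where 40.2% of all tested genes were called (20.3% up and 19.9% down). The median over members was 0.18, against 0.01 over all tested genes. Atp6v0d2 (2.73 ± 0.20, adjusted p = 3.93e-10) and Slc9b2 (1.94 ± 0.21, adjusted p = 1.52e-07) differed most, followed by Tcirg1 (0.82 ± 0.11, adjusted p = 3.84e-06) and Snx10 (0.59 ± 0.11). The lowest 20-month library exceeded the highest 6-month one for each of these 4. Smaller rises were those of Atp6ap2 (0.42 ± 0.07), Atp6v1b2 (0.41 ± 0.11), Plekhm1 (0.39 ± 0.09), Atp6v0b (0.37 ± 0.11), Atp6v1c1 (0.29 ± 0.09), Atp6v0c (0.25 ± 0.10) and Ostm1 (0.18 ± 0.07). The 3 genes that were lower were Atp6v0a2 (-0.51 ± 0.10), Rab7 (-0.28 ± 0.05) and Atp6v0a1 (-0.23 ± 0.07). Of the osteoclast markers 5 of 10 were also higher and none lower in the 20-month 2-day cells, with summed levels of 771 to 795 against 355 to 572 TPM. Stromal markers were lower in 4 of 6 tested and higher in 1, at 1043 to 1289 against 2829 to 3275 TPM. Their part was not tested.

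Among large wild-type cells no member was called between ages. Between 6 months and 1 month limma called 0 of 27, with 0 at an unadjusted p under 0.05, where 0.285% of all tested genes were called (0.0872% up and 0.198% down). Between 20 and 6 months it called 0 of 27, with 2 at an unadjusted p under 0.05, where 1.89% of all genes were called (0.729% up and 1.17% down). Those 2 were Snx10 (289, 364 and 259 at 20 months against 259, 77.8 and 161 TPM at 6 months, 0.73 ± 0.29, adjusted p = 0.184) and Atp6v1a (0.82 ± 0.38, adjusted p = 0.238). The wide 6-month group enters both comparisons. As deposited the median of all genes was -0.16 and 0.27, and in the older comparison 72.6% of called genes were higher in place of 38.5%. With 1 spread for all libraries in place of 1 per group, 1 and 4 members were called. Of all 12614 tested genes, 488 were then higher and 720 lower at 6 than at 1 month. Between 20 and 6 months 1608 were higher and 1875 lower. The lack of calls does not show that the levels are equal.

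Terc-/- and wild-type large cells were compared at 1 and 6 months without the marked libraries. At 1 month 9 of 27 members were higher in Terc-/- and none lower, where 27.8% of all tested genes were called (13.5% up and 14.3% down). At 6 months 1 member was higher, where 3.52% of all genes were called (2.62% up and 0.896% down). The median over members was 0.17 at 1 month and 0.10 at 6 months. The genes called at 1 month were 5 of the V0 sector, Atp6ap1, Clcn7, Slc4a2 and Plekhm1, and none of the 9 tested V1 subunits. This split between sectors was not tested. The 1-month wild-type group is the one with the female pattern.

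**Figure D3:**
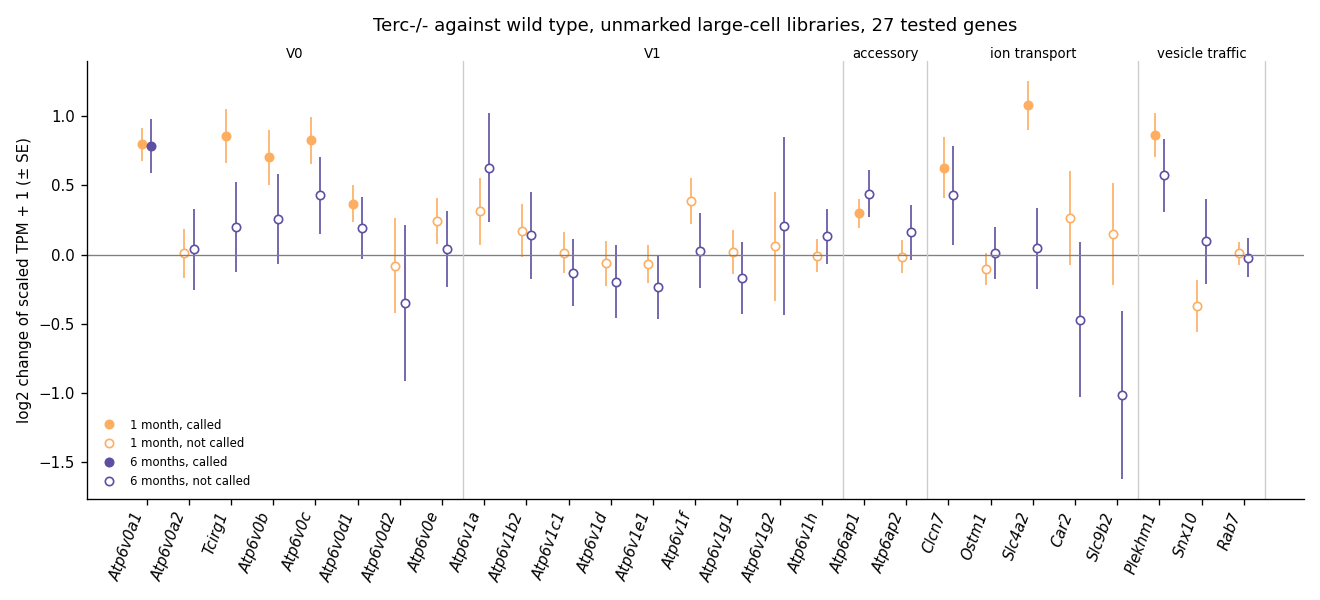
Difference between Terc-/- and wild-type large cells for the 27 tested genes at 1 month (orange) and 6 months (purple), as log2 of scaled TPM + 1 with standard errors; filled points passed the adjusted p threshold. At 1 month 9 genes are filled, the highest being Slc4a2 at 1.08, and at 6 months only Atp6v0a1 is.

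Slc4a2 differed most at 1 month, with 80.4, 95.7 and 106 TPM in wild type and 180.4, 194 and 210.0 TPM in Terc-/- (1.08 ± 0.18, adjusted p = 9.8e-05). Plekhm1 read 21.9, 30.1 and 35.2 against 51.9, 50.4 and 52.7 TPM (0.87 ± 0.16, adjusted p = 0.000277). Clcn7 read 96.9, 130.4 and 150.1 against 181, 184 and 198 TPM (0.63 ± 0.22, adjusted p = 0.035). None of these 3 overlapped between genotypes.

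The V0 subunits gave Tcirg1 at 664, 549 and 579.6 TPM in wild type and 985, 1168 and 1024 TPM in Terc-/- (0.86 ± 0.20, adjusted p = 0.00216). Atp6v0c read 1890.0, 1237 and 1349.7 against 2432, 2767 and 2439 TPM (0.83 ± 0.17, adjusted p = 0.000836). Atp6v0b read 846, 593 and 644 against 1117, 1164 and 1004 TPM (0.70 ± 0.20, adjusted p = 0.00995). Among these ring and channel genes the lowest Terc-/- library was above the highest wild-type one. The same held for Atp6v0a1, at 25.5, 37.0 and 41.1 against 59.7, 56.4 and 59.1 TPM (0.80 ± 0.12, adjusted p = 3.09e-05), and for Atp6v0d1, at 199, 167 and 173 against 234, 229 and 218 TPM (0.37 ± 0.13, adjusted p = 0.043). Atp6v0d2 overlapped, at 336, 339 and 384 against 297, 342 and 341 TPM (-0.08 ± 0.34, adjusted p = 0.892).

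The accessory gene Atp6ap1, which lies on the X chromosome, read 370.4, 400.4 and 418 against 483, 480.4 and 466 TPM (0.30 ± 0.10, adjusted p = 0.0355). Atp6ap2, the other X-linked member, read 264, 285 and 305 against 276, 269 and 280.1 TPM and overlapped (-0.01 ± 0.12). Macrophage markers were higher in 4 of 8 and lower in 1 in the Terc-/- cells of 1 month, with summed levels of 3151 to 3666 against 2218 to 2244 TPM. Stromal markers were lower in 4 of 6 tested, at 143 to 259 against 615 to 2632 TPM. The osteoclast markers were higher in 1 of 10, and the part of these markers was not tested. The count of 9 was 3 without replicate 3 and 4 without replicate 4 of the 1-month wild type, and 5 in a fit of the compared groups alone.

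At 6 months the called gene was Atp6v0a1, at 43.0, 26.6 and 25.3 TPM in wild type and 62.7, 59.1 and 54.2 TPM in Terc-/- (0.78 ± 0.19, adjusted p = 0.027), without overlap. The call was lost without replicate 1 or 4 of the wild type or replicate 1 or 2 of Terc-/-, in a fit of the compared groups alone and with TPM as deposited. Without wild-type replicate 2, 7 members were called, and 2 without Terc-/- replicate 4. Slc9b2 had the largest fitted difference in size but a wide spread, at 200.1, 132 and 152 against 104, 115 and 52.7 TPM (-1.01 ± 0.60, adjusted p = 0.416), and was not called. Neither was Atp6v1a (0.63 ± 0.39, adjusted p = 0.451). Terc-/- replicate 4 was the lowest of its group for Tcirg1, Atp6v0d2, Atp6v1a, Car2, Slc4a2 and Slc9b2. A test of whether the genotype effect itself differed between 6 months and 1 month called 0 of 27 members, with 1 at an unadjusted p under 0.05 (Slc4a2, -1.03 ± 0.34, adjusted p = 0.365), where 0.293% of all genes were called (0.222% up and 0.0713% down).

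Within unmarked Terc-/- large cells 1 member was lower at 6 months than at 1 month, where 5.53% of all tested genes were called (4.09% up and 1.43% down). It was Slc4a2, which read 180.4, 194 and 210.0 TPM at 1 month and 136, 161 and 79.4 TPM at 6 months (-0.69 ± 0.15, adjusted p = 0.00466), without overlap. Slc9b2 read 157, 174 and 149.7 against 104, 115 and 52.7 TPM (-0.89 ± 0.30) and missed the threshold (adjusted p = 0.0907). The median over members was -0.23. The Slc4a2 call was lost in a fit of the compared groups alone (adjusted p = 0.180), which called 0 members. Leaving out replicate 4 of the 1-month group gave 2 calls and leaving out replicate 1 of the 6-month group gave 3. Stromal markers were higher in 4 of 6 tested at 6 months, and their part was not tested.

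The marked large-cell libraries carry the same stage label as the unmarked ones, but their acid genes resembled neither class throughout. On the scaled values, 7 of the 27 members lay lower in all 9 marked than in all 15 unmarked large-cell libraries, where 3.85% of all tested genes did, and 0 lay higher in all, where 6.94% did. The 7 were Atp6v0d2, Atp6v1b2, Atp6v1d, Atp6v1g1, Slc4a2, Car2 and Slc9b2. With TPM as deposited, Tcirg1 and Atp6v0e joined them (9 of 27, against 8.38%), and again 0 lay higher in all, against 2.75%. Compared with the 6 libraries of 2 days, 19 of 27 members lay higher in all marked libraries on the scaled values, where 23.4% of all genes did, and 8 on the deposited scale, where 7.3% did. None lay lower in all on the scaled values, against 20.8% of genes, and 4 did as deposited (Atp6v0a2, Atp6v1g1, Car2 and Rab7), against 49.3%. For the unmarked large cells 22 of 27 lay higher in all 15 than in all 6 libraries of 2 days (7.83% of all genes) and 0 lower (6.2%), and as deposited 16 (3.42%) and 0 (13.6%). The 8 members higher in all marked libraries than at 2 days on both scales were Atp6v0b, Atp6v0c, Atp6v0d1, Atp6v0e, Atp6v1e1, Atp6v1f, Atp6ap1 and Atp6ap2. Atp6v0d2, Slc9b2, Slc4a2, Atp6v1a and the low transcript Atp6v1g2 overlapped with the 2-day range on both scales.

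**Figure D4:**
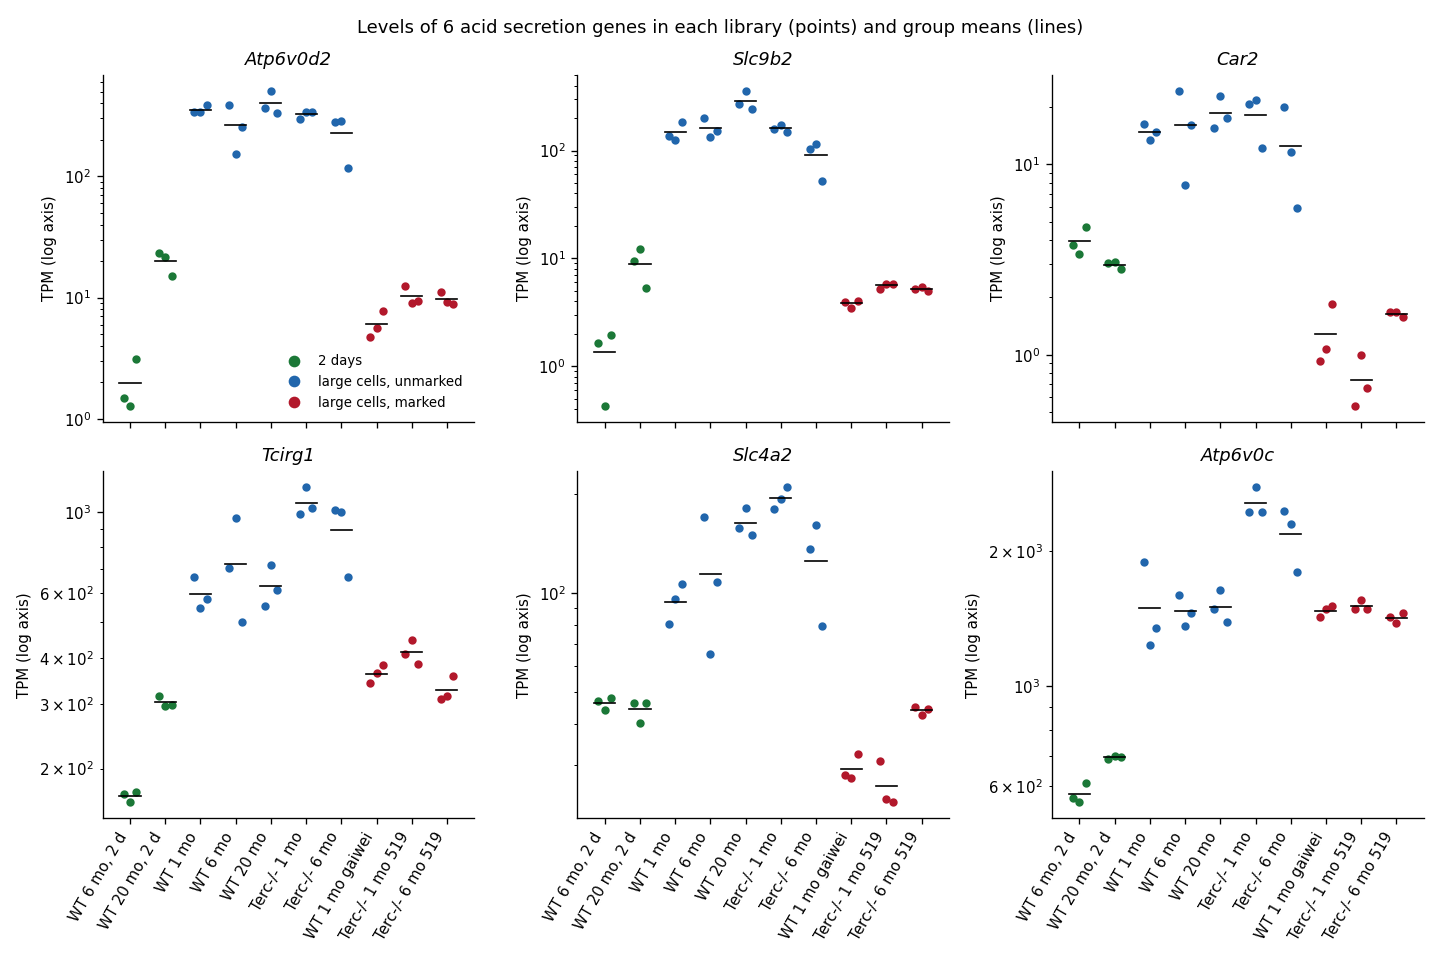
TPM on a log axis of Atp6v0d2, Slc9b2, Car2, Tcirg1, Slc4a2 and Atp6v0c in each library (points) of the 10 groups, with group means (lines); colours separate 2-day, unmarked large-cell and marked large-cell libraries. In marked libraries Atp6v0d2 lies at 4.71 to 12.5 TPM, inside the 2-day range of 1.28 to 23.3, whereas Atp6v0c lies at 1381 to 1551 TPM, above the 2-day maximum of 701.

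In direct comparisons with the unmarked group of the same genotype and age, most called members were lower in the marked libraries. In 1-month Terc-/- 14 members fell and 2 rose, where 49.2% of all tested genes were called (22.6% down and 26.5% up). In 6-month Terc-/- 16 fell and 2 rose, where 37.6% were called (18.5% down and 19.1% up). In 1-month wild type 11 fell and 4 rose, where 44.5% were called (21.1% down and 23.4% up). The medians over members were -0.33, -0.37 and -0.15, against 0.01, -0.01 and 0.00 over all tested genes. These levels depend on scaling. With TPM as deposited the median of all tested genes was itself -0.39, -0.26 and -0.49, and 14.8, 19.9 and 15.6% of called genes were higher, in place of 53.9, 50.9 and 52.5%. The changes below are relative to the scaled median, and 27, 23 and 20 members were called on the deposited scale. Of all 12614 genes, 1209 were higher and 6967 lower on that scale in 1-month Terc-/-. In 6-month Terc-/- 1219 were higher and 4894 lower, and in wild type 1119 and 6059. Without replicate 2 of unmarked 6-month Terc-/-, 11 members were called in the 6-month comparison.

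**Figure D5:**
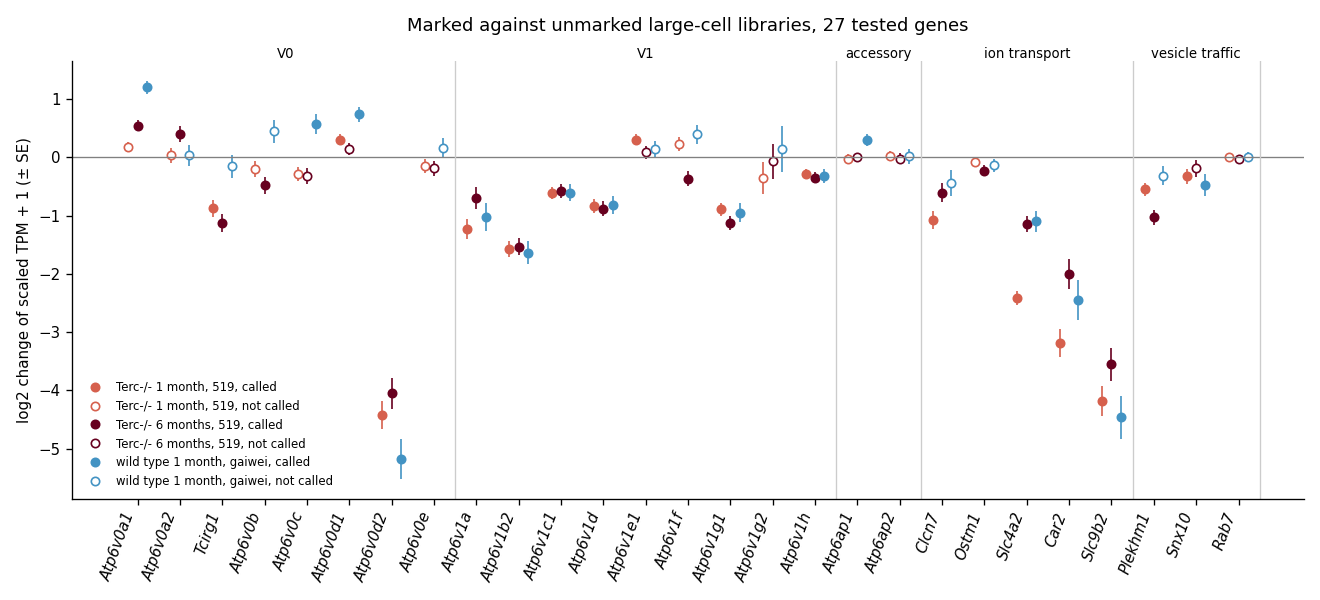
Change from unmarked to marked large-cell libraries for the 27 tested genes, grouped by role, in 1-month Terc-/- (light red), 6-month Terc-/- (dark red) and 1-month wild type (blue), as log2 of scaled TPM + 1 with standard errors; filled points passed the adjusted p threshold. Atp6v0d2 and Slc9b2 lie between -3.5 and -5.2 in all 3 comparisons, whereas the ring subunits Atp6v0b and Atp6v0c lie between -0.5 and 0.6.

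The largest falls were those of the genes with the largest step from 2 days to large cells. Atp6v0d2 read 12.5, 9.07 and 9.35 TPM in 519-marked 1-month Terc-/-, 11.1, 9.14 and 8.89 TPM in 519-marked 6-month Terc-/- and 4.71, 5.62 and 7.73 TPM in gaiwei-marked wild type. The unmarked groups stood at 297, 342 and 341, at 282, 286 and 117 and at 336, 339 and 384 TPM. The changes were -4.43 ± 0.24, -4.05 ± 0.26 and -5.17 ± 0.34, with adjusted p of 5.08e-13, 3.05e-11 and 6.73e-11. Slc9b2 read 5.26, 5.83 and 5.77, 5.20, 5.40 and 4.99 and 3.99, 3.49 and 4.06 TPM in the same marked groups, against unmarked levels of 157, 174 and 149.7, 104, 115 and 52.7 and 137, 126 and 186 TPM. Its changes were -4.19 ± 0.26, -3.55 ± 0.28 and -4.46 ± 0.37.

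Car2 fell to 0.539, 0.994 and 0.667 TPM in 1-month Terc-/-, 1.67, 1.68 and 1.59 TPM in 6-month Terc-/- and 0.924, 1.07 and 1.85 TPM in wild type, from 20.6, 21.7 and 12.1, 19.9, 11.6 and 5.91 and 16.3, 13.4 and 14.8 TPM unmarked (-3.19 ± 0.24, -2.00 ± 0.26 and -2.45 ± 0.34). These marked values lie below every 2-day library, of which the lowest read 2.83 TPM, on the deposited scale but not on the scaled one. Slc4a2 read 30.8, 23.6 and 23.1, 45.1, 42.6 and 44.3 and 28.0, 27.3 and 32.4 TPM marked (-2.41 ± 0.13, -1.15 ± 0.14 and -1.10 ± 0.18). Clcn7 read 73.3, 56.5 and 61.5 and 79.9, 82.6 and 77.6 TPM in the Terc-/- sets, where it fell (-1.08 ± 0.16 and -0.60 ± 0.17), and 55.7, 57.9 and 72.4 TPM in wild type, where it was not called (-0.44 ± 0.22, adjusted p = 0.111). Ostm1 fell in the 6-month set, to 39.4, 34.0 and 37.3 TPM (-0.23 ± 0.09), and was not called in the others.

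In the V1 sector 6 of 9 tested subunits fell in all 3 comparisons: A, B, C, D, G1 and H. Atp6v1b2 fell most, to 149.5, 132 and 138 TPM in 1-month Terc-/-, 129.9, 112 and 126 TPM in 6-month Terc-/- and 111, 104 and 130.3 TPM in wild type (-1.58 ± 0.14, -1.53 ± 0.15 and -1.64 ± 0.19). Atp6v1a read 156, 124 and 146, 195, 161 and 196 and 116, 106 and 163 TPM (-1.23 ± 0.17, -0.69 ± 0.19 and -1.03 ± 0.24). Atp6v1g1 read 276, 290.4 and 294, 243, 216 and 238 and 274, 240.0 and 269.7 TPM (-0.89 ± 0.11, -1.12 ± 0.12 and -0.95 ± 0.16). On the deposited scale the marked values of Atp6v1a and Atp6v1b2 overlapped with the 2-day range, and those of Atp6v1g1 lay below it. On the scaled values Atp6v1a still overlapped, while Atp6v1b2 (134 to 191 against 76.0 to 104.5) and Atp6v1g1 (257 to 402 against 236 to 253) lay above the 2-day range. Atp6v1d read 136, 131 and 139, 129.8, 118 and 125 and 139, 129 and 144 TPM (-0.83 ± 0.11, -0.88 ± 0.12 and -0.82 ± 0.16). Atp6v1c1 read 98.9, 97.2 and 94.3, 90.2, 83.1 and 92.5 and 86.5, 86.3 and 105 TPM (-0.61 ± 0.11, -0.58 ± 0.11 and -0.60 ± 0.15). Atp6v1h, the smallest of the 6 falls, read 77.8, 73.9 and 80.3, 76.2, 68.8 and 66.7 and 71.4, 71.4 and 75.1 TPM (-0.29 ± 0.09, -0.35 ± 0.09 and -0.33 ± 0.12).

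The other V1 subunits did not share a direction. Atp6v1e1 was higher in the 1-month Terc-/- set on the scaled values, at 402, 398 and 391 TPM (0.30 ± 0.10), but lower there as deposited (-0.17). Atp6v1f fell in the 6-month set, to 327, 319.7 and 333 TPM (-0.37 ± 0.13). Atp6v1g2 was called in none of the 3.

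The V0 sector split by subunit. Tcirg1 fell in both Terc-/- sets, to 411, 447 and 386 TPM at 1 month and 310.3, 315 and 358 TPM at 6 months (-0.88 ± 0.14, adjusted p = 1.32e-05, and -1.13 ± 0.15, adjusted p = 1.94e-06). In wild type it read 342, 363 and 382 TPM and was not called (-0.15 ± 0.20, adjusted p = 0.564). Atp6v0a1 was higher in 6-month Terc-/- (71.9, 68.8 and 70.5 TPM, 0.54 ± 0.09) and in wild type (49.1, 51.5 and 60.9 TPM, 1.20 ± 0.12). In 1-month Terc-/- it was not called (0.18 ± 0.08), and as deposited it was lower there (-0.29). Atp6v0a2 was higher in the 6-month set (20.5, 22.4 and 23.3 TPM, 0.40 ± 0.14, adjusted p = 0.0256). As deposited neither was called in the 6-month set (Atp6v0a1 0.26, adjusted p = 0.0576, and Atp6v0a2 0.12, adjusted p = 0.546).

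The ring proteolipids depended on the scale. Atp6v0c read 1484, 1551 and 1485 TPM in 1-month Terc-/- and 1424, 1381 and 1454 TPM in 6-month Terc-/-, where it was not called on the scaled values (-0.28 ± 0.12, adjusted p = 0.0566, and -0.32 ± 0.13, adjusted p = 0.0578). As deposited it was called lower in both (-0.75, adjusted p = 5.87e-08, and -0.61, adjusted p = 6.28e-06), and the unmarked values, 2432, 2767 and 2439 and 2448, 2291 and 1798 TPM, all lay above the marked ones. A replicate block on the scaled values also called it lower in both (-0.34, adjusted p = 0.0261, and -0.38, adjusted p = 0.0244). In wild type it read 1422, 1482 and 1508 TPM marked and 1890.0, 1237 and 1349.7 TPM unmarked, which overlap: it was called higher on the scaled values (0.57 ± 0.17, adjusted p = 0.0088) and not as deposited (0.00, adjusted p = 0.985). Atp6v0b fell in the 6-month set, to 567, 533 and 534 TPM (-0.48 ± 0.15), and was not called in the other sets, at 632, 728 and 694 and 683, 609 and 612 TPM. Atp6v0d1, the other d subunit, was higher in 1-month Terc-/- (189, 214 and 203 TPM, 0.30 ± 0.10) and in wild type (205, 198 and 205 TPM, 0.74 ± 0.14). As deposited it was lower in 1-month Terc-/- (-0.17) and not called in wild type (0.17). Atp6v0e was called in none of the 3 on the scaled values.

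Atp6ap1 was higher in wild type (333, 305 and 355 TPM, 0.30 ± 0.10), a direction that turned with TPM as deposited (-0.26, not called), and Atp6ap2 was called in none of the 3. Plekhm1 fell in both Terc-/- sets, to 27.4, 23.9 and 24.5 and 17.7, 16.6 and 19.2 TPM (-0.55 ± 0.11 and -1.03 ± 0.12). Snx10 fell in the 1-month sets, to 100.2, 87.7 and 99.9 TPM in Terc-/- and 102, 102 and 119 TPM in wild type (-0.33 ± 0.13 and -0.48 ± 0.19). Rab7 was not called in any of the 3 on the scaled values.

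Markers of several cell types moved with the mark. Of the 10 osteoclast markers 8 were lower in all 9 marked than in all 15 unmarked large-cell libraries, and 10, 9 and 9 were called lower in the 3 comparisons. Summed macrophage markers lay at 4134 to 5246 TPM in marked against 1165 to 3690 TPM in unmarked large-cell libraries, and 3 of 8 were higher in all. Summed neutrophil markers lay at 1199 to 3296 against 2.99 to 203 TPM, but this was nearly all S100a8. Camp was also higher in all marked than in all unmarked large-cell libraries, at 2.78 to 7.96 against 0 to 1.43 TPM. The partner of S100a8, S100a9, was listed at 0 to 2.65 TPM, Ly6g at no more than 0.607 TPM and Elane at 0 in marked libraries. Stromal markers summed to 142 to 509 against 143 to 4332 TPM. The part of any of these in the members' changes was not tested, and the labels do not say what the marks stand for.

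Among the 519-marked Terc-/- libraries, 14 members were lower and 4 higher at 6 months than at 1 month, where 51% of all tested genes were called (26.7% down and 24.4% up). The median over members was -0.25 against -0.01 over all tested genes. Atp6v1f fell most (463, 495 and 469 against 327, 319.7 and 333 TPM, -0.73 ± 0.11, adjusted p = 1.16e-05), followed by Plekhm1 (-0.66 ± 0.10), Tcirg1 (-0.53 ± 0.13), Atp6v0b (-0.51 ± 0.13) and Atp6v1g1 (-0.49 ± 0.10). The other falls were those of Atp6v1b2, Atp6v1e1, Atp6v1h, Atp6v1d, Atp6v1c1, Atp6v0c, Atp6ap2, Atp6v0d1 and Ostm1, between -0.38 and -0.23. The 4 that were higher were Slc4a2 (30.8, 23.6 and 23.1 against 45.1, 42.6 and 44.3 TPM, 0.58 ± 0.12), Car2 (0.57 ± 0.22), Atp6v0a1 (0.37 ± 0.08) and Atp6v0a2 (0.31 ± 0.12). Slc4a2 thus ran opposite ways with age in marked and unmarked Terc-/- cells, a difference that was not tested. The scaling shifts this comparison too: as deposited, the median of all genes was 0.14, 69.2% of called genes were higher in place of 47.7%, and 11 members were called. Of all 12614 genes, 4293 were then higher and 1913 lower. The changes also went with exon length (Spearman correlation 0.269 over the 27 members and 0.385 over 12565 genes): Atp6v1f and Atp6v1g1 have 1063 and 1135 bases of exon, and Slc4a2, Atp6v0a2 and Atp6v0a1 have 8322, 6726 and 6556. The part of length was not tested. Without replicate 3 of the 1-month group 10 members were called, and without replicate 2 of the 6-month group 11. Osteoclast markers were higher in 4 of 10 at 6 months and stromal markers in 5 of 6 tested, and their part was not tested.

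Genes around the machinery were counted in 4 companion lists, to be read beside the shares of all tested genes. In the step these were 10.3% up and 8.8% down at 6 months, and 28.7 and 28.2% at 20 months. In the marked sets, in the order used above, 26.5, 19.1 and 23.4% were up and 22.6, 18.5 and 21.1% down. Between genotypes at 1 month 13.5% were up and 14.3% down. No list was tested as a whole. Of the genes for pump assembly and regulation (14 listed, 12 tested), 3 rose and 1 fell from 2 days to large cells at 6 months, and 8 rose and 3 fell at 20 months. Those at 6 months were Rnasek, a small pump-associated protein (1.13 ± 0.33), Rogdi (1.68 ± 0.50), the assembly factor Ccdc115 (0.76 ± 0.23) and Dmxl2 (-0.99 ± 0.26). Rogdi and Dmxl2 belong to rabconnectin-type complexes that put V1 back on V0. The smallest p at 20 months belonged to Oxr1 (0.97 ± 0.09), Dmxl2 (47.2 TPM on average at 2 days, above every large-cell library), Tbc1d24 (1.61 ± 0.19) and Wdr7 (0.80 ± 0.10), of which Dmxl2 was the one that fell. In the marked sets 3, 2 and 4 of the 12 were higher and 3, 4 and 3 lower, among them Wdr7 (-1.08 ± 0.12, -0.79 ± 0.13 and -0.91 ± 0.17). Dmxl2 was higher in 6-month Terc-/- than wild type (1.57 ± 0.27, adjusted p = 0.00261) and is the gene of this list whose genotype effect differed between ages (1.48 ± 0.32, adjusted p = 0.0456).

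Of the other carbonic anhydrases and transporters of protons, bicarbonate and chloride (35 listed, 25 tested), 6 rose and 1 fell in the step at 6 months, and 11 rose and 9 fell at 20 months. The 4 with the smallest p at 6 months were the exchanger Slc9a5 (0.92 ± 0.20), the bicarbonate carrier Slc4a7 (-1.19 ± 0.29), the chloride channel family member Clic5 (1.54 ± 0.39) and the proton channel Hvcn1 (0.73 ± 0.21). At 20 months they were Car6 (2.60 ± 0.15), Clic5 (2.59 ± 0.15), the lysosomal channel Tmem175 (1.20 ± 0.09) and the scaffold Slc9a3r1 (-1.10 ± 0.10). At 1 month 8 were higher and 1 lower in Terc-/-, the lower being Car6 (-2.11 ± 0.24). In the marked sets 7, 10 and 9 were higher and 6, 5 and 4 lower. Slc16a3, the lactate and proton exporter, was higher in all 3 (2.22 ± 0.11, 1.96 ± 0.12 and 2.62 ± 0.16), with mean levels of 428, 651 and 474 TPM against 127, 206 and 114 TPM.

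Of the late endosome and lysosome traffic genes (22 listed, 19 tested), 7 rose and none fell in the step at 6 months, and 8 rose and 3 fell at 20 months. Arl8b, a GTPase that moves lysosomes outward along microtubules, rose at both ages (0.85 ± 0.19 and 0.72 ± 0.07) and fell in all 3 marked sets (-0.79 ± 0.08, -0.80 ± 0.09 and -0.90 ± 0.12). The next smallest p at 6 months belonged to Plekhm2 (0.65 ± 0.19), Vps16 (0.87 ± 0.27) and Borcs5 (0.95 ± 0.30). At 20 months it belonged to Vps39 (1.14 ± 0.10), the sorting receptor Sort1 (-1.83 ± 0.16) and Vps11 (0.39 ± 0.06). The lysosomal membrane gene Lamp2 was higher in all 3 marked sets (0.57 ± 0.08, 0.51 ± 0.08 and 0.63 ± 0.11) on the scaled values, with mean deposited levels of 323, 361 and 307 TPM marked against 303, 310.0 and 297 TPM unmarked. At 1 month 6 of the 19 were higher and 1 lower in Terc-/-.

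The 4 MiT regulators were all tested. Mitf, the family member best known in osteoclasts, rose in the step at both ages (1.81 ± 0.27 and 1.09 ± 0.10) and was lower in the 3 marked sets (-0.50 ± 0.12, -0.83 ± 0.13 and -0.75 ± 0.17). Tfeb rose at both ages (1.35 ± 0.45 and 0.43 ± 0.18), and Tfec fell at 20 months (-0.31 ± 0.10). In the marked sets Tfe3 was higher in all 3 (0.38 ± 0.09, 0.48 ± 0.10 and 0.69 ± 0.13) on the scaled values, whereas its mean deposited levels were 65.2, 82.4 and 60.2 TPM marked against 69.3, 71.4 and 55.1 TPM unmarked. At 1 month Tfeb (1.06 ± 0.29) and Tfe3 (0.37 ± 0.13) were higher and Tfec (-0.78 ± 0.17) lower in Terc-/-. At 2 days Mitf (0.80 ± 0.10) and Tfec (0.52 ± 0.10) were higher at 20 than at 6 months.

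Some values may hold reads of other genes. Atp6v0c and Rab7 have named pseudogenes (Atp6v0c-ps1, Atp6v0c-ps2 and Rab7-ps1) whose reads the counting may have shared with them. Atp6v0a2, Atp6v0b, Atp6v1e1, Atp6v1g2, Atp6v1h, Ostm1, Slc4a2, Plekhm1 and Rab7 overlap exons of a gene on the other strand, and the sources used here do not give the strand setting of the count, so such reads cannot be assigned. The 2 members the results turn on most, Atp6v0d2 (chr4:19876841-19922605, minus strand, mm10) and Slc9b2 (chr3:135307700-135345387, plus strand), overlap no exon of another annotated gene.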

How the data were processed

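The deposited values were taken as TPM from the values themselves, since each column sums to 1000000 and the headers state no unit. Per the submitters' processing notes HTSeq and the mm10 genome were used, and the aligner, annotation and strand setting are not given in the sources used here. No read counts were used and low values were not whole reads (20.3 to 31.2% within 0.1 of a whole number), so depth is unknown and no counting interval is given. Columns were matched to samples by title, and 45143 of 45706 gene identifiers matched GENCODE M21 (build GRCm38, the same as mm10), from which symbols and coordinates were taken.

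TPM were brought to a common scale with a factor per library, the plain mean of log ratios after removing 30% at either extreme of the ratios and 5% at either extreme of the levels, and tested as log2(scaled TPM + 1) with limma 3.58.1 in R 4.3.3. One model of 10 group means with 1 spread factor per group and trended, robust empirical Bayes moderation covered genes averaging 1 TPM or more. P-values were adjusted by Benjamini-Hochberg over all 12614 genes at 0.05. The code was tested on simulated data. Replicate numbers showed no steady pairing: correlations of deviations between same-numbered libraries ran from -0.596 to 0.330. With so few shared numbers in each comparison this cannot exclude pairing. Members, companion lists and the choice of 1 spread per group were made with earlier results of these data known. Every member is accounted for, and from each companion list up to 4 called genes with the smallest p are named, with further genes of these lists chosen after their values were seen. Alternatives were a replicate block, 1 spread for all, only the groups compared, each library left out, no scaling, scaling by median ratios, 0.1 as pseudocount, and testing without the filter; leaving 6-month wild-type large-cell replicate 2 out of the whole fit was added after seeing the data. Summaries and plots were made in Python 3.11.15 (numpy 2.4.6, pandas 2.3.3, matplotlib 3.10.9).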

Additional observations from a re-analysis of the deposited data

Results flagged for a closer look

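The step from 2 days to large cells differed between 20-month and 6-month wild type for 2 members, by a test of the difference itself. These were 2 of 27 tested members, where 13.2% of all tested genes were called (6.47% up and 6.71% down). Members were thus not called more often than tested genes in general. For Atp6v0d2 the difference was -2.33 ± 0.57 on the log2 scale, with a step of 6.70 ± 0.54 at 6 months and 4.37 ± 0.21 at 20 months. For Tcirg1 it was -1.27 ± 0.33, with steps of 2.43 ± 0.31 and 1.17 ± 0.12. Both genes were higher at 2 days in the older cells, by 2.73 ± 0.20 and 0.82 ± 0.11. These 2-day levels are part of the difference itself and give it no separate support. Over 19 alternatives the difference for Atp6v0d2 ran from -2.93 to -2.17, with adjusted p from 6.11e-05 to 0.247. That for Tcirg1 ran from -1.56 to -0.83, with adjusted p from 0.00587 to 0.164. The Atp6v0d2 call did not pass with TPM as deposited, and neither call passed without replicate 4 of the 6-month large cells.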

How the results depend on the processing

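Counts of called members were within 1.5 times of the reported ones in every comparison with a pseudocount of 0.1, median-ratio scaling or no filter. With TPM as deposited they became 0 for Terc-/- against wild type at 6 months, 11 for 519-marked Terc-/- at 6 against 1 month and 27 for marked against unmarked 1-month Terc-/-. With 1 spread for all libraries they became 5 for the difference of the step between ages, 7 for 2 days at 20 against 6 months, 1 and 4 for large wild-type cells at 6 against 1 and 20 against 6 months, 4 for genotype at 6 months, 1 for its difference between ages, and 2 and 7 for unmarked and marked Terc-/- at 6 against 1 month. Calls over all 12614 genes moved with this setting too. For 2 days between ages they went from 2560 up and 2516 down to 1077 and 1106. For genotype at 6 months they went from 331 and 113 to 1982 and 1654. In fits of the compared groups alone they became 5 and 0 for genotype at 1 and 6 months and 0 for unmarked Terc-/- with age. With the replicate block they became 4 for the difference of the step (adding Atp6v0a2 and Slc9b2) and 2 for unmarked Terc-/- with age. The block also lost Atp6v0d1 at 1 month between genotypes (adjusted p = 0.0564), and gained Clcn7 between ages at 2 days and Atp6v0c in both 519 comparisons, with no other change of call.

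Leaving out 1 library at a time gave 7 to 25 calls for the step at 6 months, 25 to 26 at 20 months and 0 to 6 for their difference. It gave 12 to 13 at 2 days between ages, 0 to 0 for both comparisons of large wild-type cells between ages, 3 to 13 and 0 to 7 for genotype at 1 and 6 months and 0 to 1 for its difference. For Terc-/- between ages it gave 1 to 3 unmarked and 10 to 17 marked, and for marked against unmarked 14 to 16, 11 to 20 and 11 to 21. Among results called in the reported fit or in the alternative, directions turned only with TPM as deposited, in the marked comparisons. Changes of sign without a call in either fit were not counted. In 1-month Terc-/- these were Atp6v0a1 (-0.29), Atp6v0a2 (-0.41), Atp6v0d1 (-0.17), Atp6v1e1 (-0.17), Atp6v1f (-0.24) and Atp6ap2 (-0.45), in 6-month Terc-/- Atp6v1e1 (-0.20), and in wild type Atp6v0e (-0.40), Atp6v1e1 (-0.41), Atp6ap1 (-0.26), Atp6ap2 (-0.55) and Rab7 (-0.56). The cause of these changes was not tested. With 3 libraries a group and unknown depth, small differences of low genes such as Atp6v1g2 and Car2 are uncertain, even where they were called.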
